A study of Mus musculus with 75 samples.

Results

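The turnover from the early to the late light response was measured in vasoactive intestinal peptide (VIP) interneurons of the mouse visual cortex, by comparing ribosome-bound RNA after 7.5 h of light with that after 1 h. The members are all libraries of the VIP line at these 2 times, 3 at each, so 6 of the 73 libraries with values (75 were labelled). Both groups were 8-week-old C57BL/6 mice, heterozygous for Vip-Cre and for the RiboTag allele Rpl22-HA, which puts an HA tag on a ribosomal protein in cells that express Cre. They were kept in complete darkness and then given light for 1 h or 7.5 h, so darkness followed by light is shared by both groups, and neither is an untreated control. The series holds 4 further lines (Emx, Gad2, PV and SST) and 3 further conditions (darkness, 3 h of light and standard housing). Each library pooled the visual cortices of 3 mice, and the 3 libraries of a group are separate biological replicates per the series' design text. HA-tagged ribosomes were immunopurified, their RNA was amplified with the SPIA method and read as single-end 50-bp reads. The tag follows the Vip promoter, so any cell in which that promoter has driven Cre is included, and the method reads RNA on ribosomes, not the total RNA of a cell.

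As background, a strong synaptic input makes neurons transcribe immediate early genes within minutes. Many of these encode transcription factors (Fos and Jun proteins, Egr, Nr4a, Npas4) that are switched on through CREB and serum response factor, fade quickly, and act on a later set of genes. The late set differs more between neuron types and includes secreted factors that act on synapses. VIP interneurons mainly inhibit other interneurons, SST cells above all, and in sensory cortex thereby release excitatory neurons from inhibition.

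Gene read totals were 26.6 to 42.2 M in the 1 h libraries and 9.83 to 13.01 M in the 7.5 h libraries, so depth moved with the comparison. One read was worth 0.528 to 0.795 normalized reads at 1 h and 1.83 to 2.28 at 7.5 h. The line matched its label: Vip was listed at 71849 normalized reads on average at 1 h, against 59.9 in the PV line, 70.6 in the SST line and 41.8 in the Emx line. Of 10 marker lists for neuron classes, glia and vessels, none had a member called without pairing of the libraries. With it the 5 called were Vip and Crh (VIP neurons), Gad1 and Gad2 (pan-inhibitory) and Nrn1 among 14 excitatory markers. Over all genes tested 1.03% were called with it. Markers of microglia and macrophages had a median log2 change of -0.40, with 9 of 10 negative, and summed to 1755 to 1982 normalized reads at 1 h and 1295 to 1779 at 7.5 h. Those of oligodendrocytes had a median of -0.24, with 9 of 10 negative. SST neuron markers had a median of 0.30, with 7 of 7 positive. No marker was at 0 in all libraries of a group. Their part in the results below was not tested, and in bulk samples fewer cells of a type and less RNA per cell cannot be told apart.

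Of 14181 genes tested across all 15 VIP libraries, 18 (0.127%) differed between 7.5 h and 1 h at a 5% false discovery rate, 4 of them higher and 14 lower at 7.5 h (0.0282% and 0.0987% of genes). With quantile normalization 2 were higher and 16 lower, and with plain limma (no trend or robust moderation) 4 genes were called in all. Libraries with the same replicate number deviated together, and with that number in the fit as a block (the pairing) 146 genes (1.03%) were called, 93 higher and 53 lower (0.656% and 0.374%). With the pairing and only the 6 libraries of both times, 322 were called. In all, 17 genes were called in both fits, and Egr1 was called without the pairing only. The median log2 change of all genes was -0.0026. Without the pairing, 553 of the 14181 genes had an unadjusted p below 0.05. That is under 5% of them, the share this cutoff gives where no gene differs. The counts depend on single libraries. Leaving out the 1 h library 1, 2 or 3 left 9, 3 or 12 calls without the pairing and 83, 57 or 72 with it. Leaving out the 7.5 h library 1, 2 or 3 left 7, 7 or 3 calls and 81, 66 or 48 calls. With reads thinned to the shallowest VIP library, Tuba8 (0.0691), Errfi1 (0.0545) and Filip1l (0.116) missed the threshold without the pairing, and among others Junb (0.0842), Nfkbiz (0.0555) and Dnajb1 (0.0502) with it (adjusted p). Without the pairing, Npas4, Fosb and Nr4a1 were called whichever library was left out. With it, 35 genes were called each time, 16 lower and 19 higher. A change is called a rise or fall below where it passed either fit, with both adjusted p-values given for the main examples (limma, Benjamini-Hochberg over all genes).

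**Figure D1:**
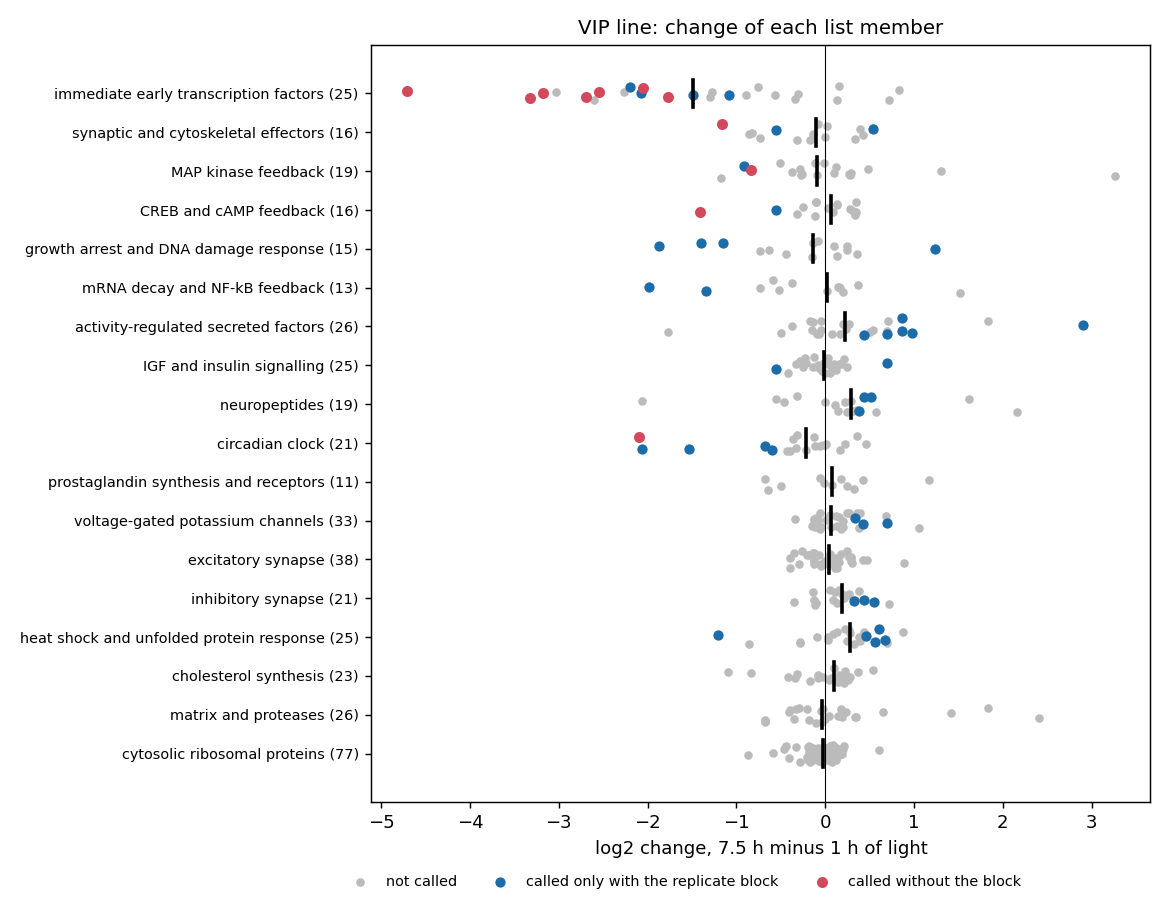
Log2 change from 1 h to 7.5 h of light in the VIP line (x axis) for every tested member of 18 gene lists (rows, number tested in brackets). Each point is a gene, red where called without the pairing of libraries, blue where called only with it and grey otherwise. Black bars are list medians, which run from -1.49 for immediate early transcription factors to 0.29 for neuropeptides.

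Of the 14 genes that fell without the pairing, 7 were immediate early transcription factors. Of 26 such factors listed, 25 were tested. Without the pairing 7 fell and none rose, and with it 10 fell and none rose. Over all genes 0.0987% fell without the pairing and 0.374% with it. Their median log2 change was -1.49, against -0.0026 over all genes tested. In 17 of the 25, every 7.5 h library lay below every 1 h library, which held for 5.06% of all genes.

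Npas4, an activity-dependent factor known for controlling inhibitory synapses onto neurons, fell furthest. It stood at 6705, 13483 and 7202 normalized reads in the 3 libraries at 1 h and at 435, 658 and 125 at 7.5 h. The second 1 h library was the highest, as for most early factors, and the groups were far apart. Npas4 was 26.2-fold lower (log2 change -4.71, SE 0.59, n = 3 and 3; adjusted p = 0.00471 without the pairing and 0.0208 with it). Its dark libraries held 132, 219 and 211, so after 7.5 h of light 2 of the 3 libraries were above every dark library and 1 was below them all. With the pairing it was not called when any 1 of the 6 libraries was left out, its largest adjusted p being 0.132 without the 1 h library 2.

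Fos and Fosb encode subunits of the AP-1 transcription factor. Fos was listed at 7029, 13432 and 9542 at 1 h and at 1386, 1589.9 and 1509.6 at 7.5 h. The late libraries lay close together, and Fos was 6.47-fold lower (adjusted p = 0.00568 without the pairing and 0.0428 with it). Its level at 3 h, 886, 1995 and 1092, lay on both sides of the 7.5 h libraries. When 1 library was left out, Fos was called in 4 of 6 fits without the pairing, reaching 0.0631 without the 1 h library 2, and in none with it, reaching 0.196 without the 1 h library 2. Fosb was intermediate at 3 h: it was at 6282, 11852 and 7115 at 1 h, at 3328, 5129.9 and 3428 at 3 h and at 1025, 1027 and 681 at 7.5 h, 9.03-fold below 1 h (adjusted p = 0.00316 without the pairing and 0.011 with it). No Fosb library at 3 h overlapped with either of the other times. Of the AP-1 partners, Junb (4.22-fold lower) and Jun (2.12-fold lower) were called with the pairing only, at adjusted p = 0.0413 and 0.0144. The call of Junb was lost whichever library was left out, and that of Jun in 3 of 6 fits, reaching 0.251 without the 7.5 h library 3 and 0.197 without the 1 h library 2. Fosl2 fell short in both fits: it was at 20152, 23019 and 24734 at 1 h and 12252, 8731 and 7173 at 7.5 h (adjusted p = 0.0839 without the pairing and 0.0531 with it), against 1958 to 3228 in darkness. Jund, which cells express constitutively, had a log2 change of -0.34, within its SE of 0.42.

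The 3 Nr4a genes encode orphan nuclear receptors. Nr4a3 was 10.02-fold lower at 7.5 h, going from 1778, 2531 and 2039 to 367, 148 and 165 (adjusted p = 0.0111 without the pairing and 0.000483 with it). Nr4a1 went from 14901, 28426 and 14825 to 4158, 3127 and 2400.3 and was 5.86-fold lower (adjusted p = 0.00316 without the pairing and 0.0196 with it). Nr4a2 was 4.59-fold lower and was called with the pairing only (adjusted p = 0.0572 without the pairing and 0.00674 with it). At 7.5 h all 3 libraries of Nr4a1 were still above all 3 dark libraries, which held 702 to 1526. With 1 library left out at a time, Nr4a3 was called in 3 of 6 fits without the pairing, reaching 0.127 without the 1 h library 2, and in all 6 with it. Fosb and Nr4a1 were called in all 6 without the pairing and in 2 with it, reaching 0.0776 without the 7.5 h library 3 and 0.111 without the 7.5 h library 3.

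The Egr zinc finger factors split. Egr4 was 4.15-fold lower, from 1083, 2286 and 1311 to 387, 446 and 261 (adjusted p = 0.00959 without the pairing and 0.000225 with it). Egr1 was 3.41-fold lower, from 60464, 105900 and 55109 to 22418, 25080 and 15801, and its call was lost with the pairing (adjusted p = 0.0359 without the pairing and 0.0696 with it). It was also lost without any 1 of the 6 libraries, reaching 0.278 without the 1 h library 2. Egr2 was called with the pairing only, at 0.047. Egr3 was at 8449.9, 8783 and 7794 at 1 h and 8584, 6908 and 5096 at 7.5 h, with overlapping groups (adjusted p = 1 without the pairing and 0.55 with it), and all 6 libraries were above the dark range of 1042 to 1723. Klf10 (log2 change 0.83) and Ier5 (0.72) had positive values, and neither was called.

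**Figure D2:**
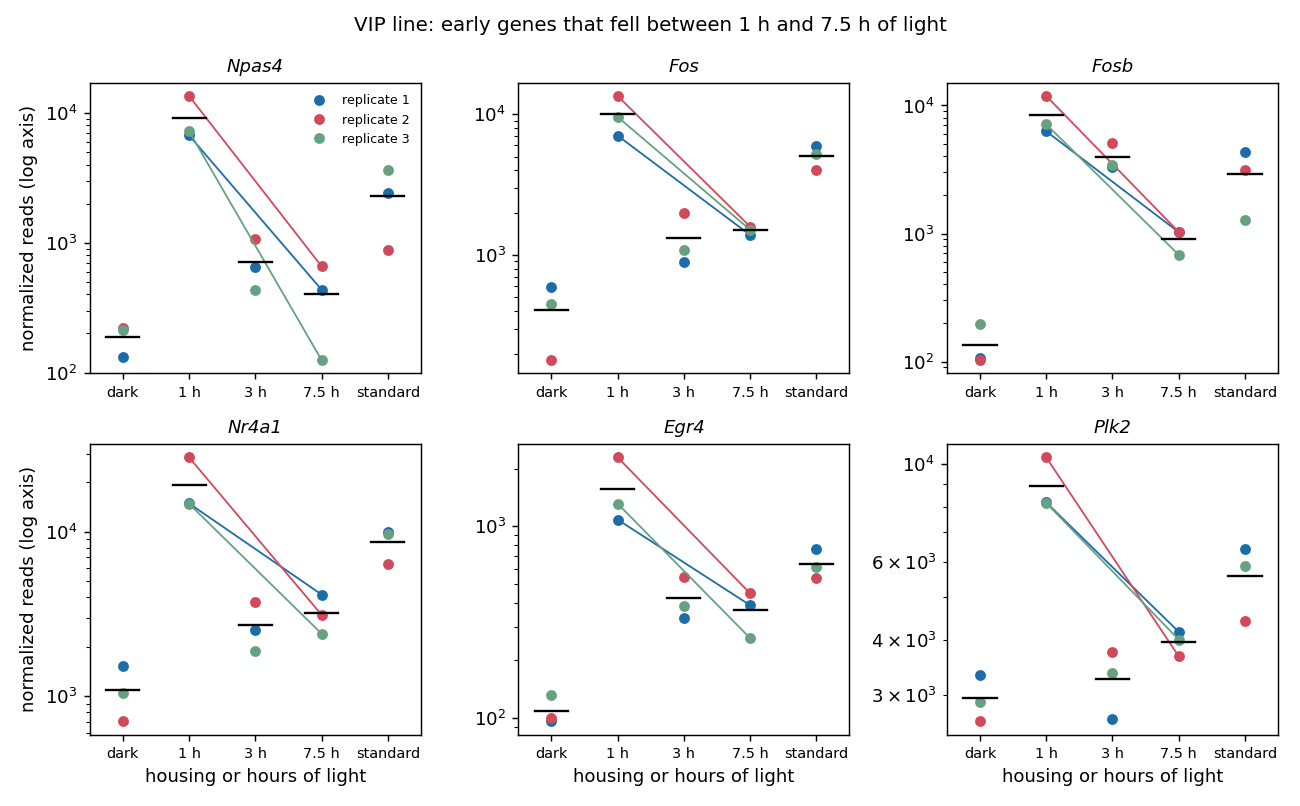
Normalized reads (y axis, log scale) of 6 genes that fell in the VIP line, by housing condition or hours of light (x axis). Points are libraries coloured by replicate number, black bars are group means of 3 libraries, and lines join same-numbered libraries at 1 h and 7.5 h. In each panel all 7.5 h points lie below all 1 h points, and for Npas4 the 1 h libraries reach from 6705 to 13483.

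The promoters of Npas4, Fos, Nr4a1 and Plk2 are shown as examples, chosen among the falling genes because they hold the sequence that CREB recognises. The 250 bases before the gene start are printed from RefSeq (GRCm38.p6), 5′ to 3′ on the gene's strand, and capitals mark TGACG, the core of the cAMP response element, or its reverse complement CGTCA.
Npas4 (chr19:4989972-4990221, minus strand): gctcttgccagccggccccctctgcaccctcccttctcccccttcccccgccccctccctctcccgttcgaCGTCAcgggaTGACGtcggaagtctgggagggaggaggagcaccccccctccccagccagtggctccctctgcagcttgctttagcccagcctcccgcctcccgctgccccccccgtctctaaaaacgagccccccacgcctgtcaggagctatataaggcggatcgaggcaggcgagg
Fos (chr12:85473640-85473889, plus strand): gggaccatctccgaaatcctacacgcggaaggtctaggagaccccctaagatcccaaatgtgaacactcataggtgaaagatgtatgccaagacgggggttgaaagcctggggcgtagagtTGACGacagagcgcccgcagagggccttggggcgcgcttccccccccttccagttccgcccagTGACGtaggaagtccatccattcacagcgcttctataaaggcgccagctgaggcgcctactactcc
Nr4a1 (chr15:101266596-101266845, plus strand): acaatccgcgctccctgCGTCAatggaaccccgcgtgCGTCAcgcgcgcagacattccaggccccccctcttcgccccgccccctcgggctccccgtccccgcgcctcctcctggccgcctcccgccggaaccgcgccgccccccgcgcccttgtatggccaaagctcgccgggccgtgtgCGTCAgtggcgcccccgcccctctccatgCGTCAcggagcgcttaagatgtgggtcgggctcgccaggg
Plk2 (chr13:110394794-110395043, plus strand): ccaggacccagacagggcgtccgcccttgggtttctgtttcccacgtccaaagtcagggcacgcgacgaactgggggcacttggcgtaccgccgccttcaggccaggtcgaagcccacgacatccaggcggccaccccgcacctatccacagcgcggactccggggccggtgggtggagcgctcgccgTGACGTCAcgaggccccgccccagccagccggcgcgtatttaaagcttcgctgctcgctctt
Npas4 and Fos hold 2 matches each, Nr4a1 holds 4, and in Plk2 the 2 matches overlap on opposite strands and make the full element TGACGTCA. On either strand the core was in 17.9% of 27025 promoters. It was in 7 of the 10 falling genes with an entry without the pairing (70.0%) and in 21 of 42 with it (50.0%). Among rising genes with an entry it was in 15 of 64 (23.4%). The full element was in 1.62% of all promoters and in 4 of those 42 (Plk2, Btg2, Arl5b and Hlf). The CArG box, the site of serum response factor, was in 1.40% of all promoters and in none of the 42. Only exact matches within the 250 bases were counted, and genes without an entry, such as Egr1, were not searched. The count therefore does not show that these genes lack such a site. The share of all promoters, here and below, is over the 27025 entries and not only over genes tested in this line. A difference between these shares was not tested. These are matches of letters, and binding was not measured.

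Some genes that damp or carry the first response also fell. Sik1, a kinase that holds CREB's coactivators out of the nucleus, went from 5546, 10314 and 5229.6 to 2804, 2840.3 and 1979.7 and was 2.67-fold lower (adjusted p = 0.0328 without the pairing and 5.3e-05 with it). Plk2, a kinase that weakens synapses after strong activity, went from 8177, 10345 and 8155 to 4165, 3665 and 3999.8 and was 2.24-fold lower (adjusted p = 0.0111 without the pairing and 0.000225 with it). For both genes the 2 times did not overlap and all 7.5 h libraries were above the dark libraries. Errfi1, an inhibitor of the epidermal growth factor receptor, went from 3499, 4089.8 and 3876 to 2262, 2162 and 1987, where it overlapped its range in darkness (2087 to 2194), and was 1.79-fold lower (adjusted p = 0.0419 without the pairing and 0.000917 with it). With the pairing all 3 were called whichever library was left out. Without it, Errfi1 was called in none of the 6 fits, Sik1 in 1 and Plk2 in 3, their adjusted p reaching 0.32 without the 1 h library 2, 0.262 without the 7.5 h library 3 and 0.139 without the 1 h library 2.

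The other members of these lists mostly did not pass. Over all genes 0.127% were called without the pairing and 1.03% with it. Of 19 genes of MAP kinase feedback, only Errfi1 and, with the pairing, Dusp10 fell (a phosphatase of stress-activated MAP kinases, 1.88-fold, adjusted p = 0.00646), and the list's median log2 change was -0.09. Dusp1 was 2.26-fold lower and missed both thresholds (adjusted p = 0.392 without the pairing and 0.207 with it). Of 16 genes of CREB and cAMP feedback, Sik1 and, with the pairing, Rgs2 fell, with a list median of 0.06. Of 16 synaptic and cytoskeletal effectors, Plk2 and, with the pairing, Rgs2 fell and Rasgrp1 rose. Arc, which removes AMPA receptors from synapses, did not follow the transcription factors: it was at 4156, 6109.9 and 4349 at 1 h and 5502, 5781 and 2617 at 7.5 h, overlapping (adjusted p = 1 without the pairing and 0.951 with it), against 339 to 771 in darkness.

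Stress and growth arrest genes moved both ways with the pairing, and none was called without it. Gadd45b and Gadd45g, which take part in stress signalling and DNA demethylation, were 2.21-fold and 2.64-fold lower (adjusted p = 0.0115 and 0.0122). Btg2, an antiproliferative factor that promotes mRNA deadenylation, was 3.67-fold lower (0.0309). Cdkn1a, the cell cycle inhibitor p21, rose instead: it was at 458, 659.6 and 759 at 1 h, 2226, 2913 and 1479 at 3 h and 1445, 1988 and 1049 at 7.5 h, 2.36-fold higher than at 1 h (adjusted p = 0.402 without the pairing and 0.0165 with it). Every 7.5 h library of Cdkn1a was above every 1 h library. Nfkbiz, a nuclear IκB protein, and Tiparp, an ADP-ribosyltransferase, fell with the pairing, with log2 changes of -1.99 and -1.34 (0.0392 and 0.00907). These 6 calls were each lost when some single library was left out, the largest adjusted p being 0.332 without the 1 h library 2 for Nfkbiz.

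Among the 18 genes called without the pairing were a few that belong to no early gene family. Fam46a, a poly(A) polymerase, went from 5819, 6937 and 6767 to 2530.1, 1740.2 and 2226 (3.03-fold lower; adjusted p = 0.0205 without the pairing and 0.000112 with it). Like many early factors it was lower in darkness (622 to 1306) than at either time. Sytl2, which links secretory vesicles to Rab27, went from 653, 674 and 781 to 294, 317 and 332 (2.23-fold lower; adjusted p = 0.0328 without the pairing and 0.00199 with it). Its dark libraries held 679.8 to 717, so its 7.5 h level was below both darkness and 1 h. Rgs16, a brake on G-protein signalling that the naming rule did not reach, was 2.06-fold lower, from 4799, 6156 and 4287 to 2402, 2769.7 and 2189 (adjusted p = 0.0328 without the pairing and 1.59e-05 with it). Its 7.5 h libraries too were below every dark library (2869 to 3724). All 3 were called with the pairing whichever library was left out. Without the pairing Fam46a and Sytl2 were called in none of those fits and Rgs16 in 1, reaching 0.278 without the 1 h library 2.

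With the pairing the 93 rises had a median log2 change of 0.61 and the 53 falls one of -1.15. Srxn1, sulfiredoxin, which restores overoxidised peroxiredoxins, went from 3509, 3799 and 4643 to 7347, 6476 and 8055 (1.84-fold higher; adjusted p = 0.0328 without the pairing and 0.000225 with it). Its peak was between them, at 10041, 11581 and 13050 at 3 h. Arrb1, β-arrestin 1, which uncouples and internalises G-protein-coupled receptors, went from 8348, 7327 and 7048 to 15283, 11560 and 13487 (1.77-fold higher; adjusted p = 0.0205 without the pairing and 5.3e-05 with it). Arrb1 at 1 h overlapped with darkness (7106 to 7948), and its 3 h libraries, 10154 to 11293, lay between. Tuba8, an α-tubulin, went from 585, 556 and 499 to 1810.3, 1182 and 1249 (2.54-fold higher; adjusted p = 0.0477 without the pairing and 0.00199 with it). The groups did not overlap for any of the 3, and all were called with the pairing whichever library was left out. Without it, Tuba8 was called in none of those 6 fits, Srxn1 in 1 and Arrb1 in 2, reaching 0.324 without the 7.5 h library 1, 0.252 without the 7.5 h library 3 and 0.162 without the 1 h library 2.

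The Srxn1 promoter is printed as an example that holds the AP-1 motif TGANTCA, in capitals (RefSeq, GRCm38.p6, 250 bases before the gene start, 5′ to 3′).
Srxn1 (chr2:152105274-152105523, plus strand): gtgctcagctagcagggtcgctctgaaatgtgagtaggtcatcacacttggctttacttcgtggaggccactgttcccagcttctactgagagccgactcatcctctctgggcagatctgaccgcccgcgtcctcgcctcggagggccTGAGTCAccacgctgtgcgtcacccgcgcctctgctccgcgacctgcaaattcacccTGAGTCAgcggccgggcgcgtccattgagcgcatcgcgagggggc
It holds 2 matches. The motif was in 6.87% of all promoters on either strand and in 7 of 64 rising genes with an entry (10.9%). These were Srxn1, Igf1, Kcnip3, Hspa5, Diras2, Schip1 and Slc6a17. It was in none of the 42 falling genes. A difference between these shares was not tested, and binding was not measured.

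**Figure D3:**
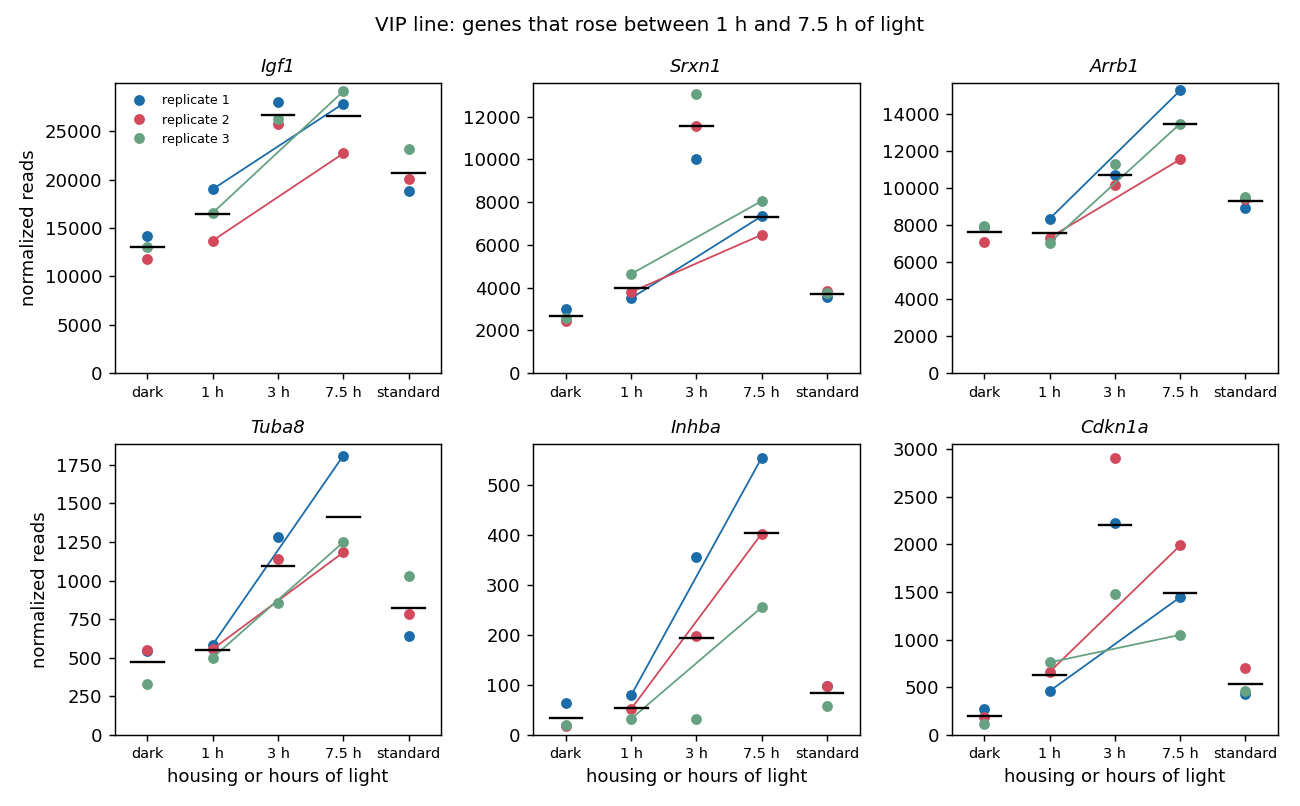
Normalized reads (y axis, from 0) of 6 genes that rose in the VIP line, by housing condition or hours of light (x axis). Points are libraries coloured by replicate number, black bars are group means of 3 libraries, and lines join same-numbered libraries at 1 h and 7.5 h. The 3 h means of Srxn1, Cdkn1a and Igf1 are at or above those of 7.5 h, while the means of Arrb1, Tuba8 and Inhba are highest at 7.5 h.

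Of 26 activity-regulated secreted factors tested, none was called without the pairing. With it 6 rose and none fell, against 0.656% and 0.374% of all genes. Of the 26, 10 had negative changes, and the list's median log2 change was 0.22. Inhba, the βA subunit of activin, had the largest change: it was at 79.1, 51.7 and 31.8 at 1 h and at 555, 403 and 255 at 7.5 h (7.46-fold higher; adjusted p = 0.281 without the pairing and 0.00321 with it). All late libraries were above all early ones, and the same-numbered order of the libraries was kept. Inhba was at 356, 197 and 30.9 at 3 h, where 2 of the 3 libraries were above every 1 h library. It kept its call with the pairing for every library left out, the largest adjusted p being 0.0474 without the 7.5 h library 3.

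Igf1, insulin-like growth factor 1, went from 19012, 13706 and 16564 at 1 h to 27847, 22700 and 29123 at 7.5 h. The groups did not overlap, and same-numbered libraries all rose. The change was 1.62-fold (log2 0.70, SE 0.15), with adjusted p = 0.132 without the pairing and 0.000225 with it; with the pairing it was called for every library left out. At 3 h Igf1 was at 28009, 25725 and 26262, so its mean there (26665 ± 1194, SD, n = 3) and that at 7.5 h (26557 ± 3400.4) differed by less than their spread. Around it, 25 tested genes of IGF and insulin signalling had a median log2 change of -0.01. Irs2, an adaptor of the insulin and IGF receptors, was the only other one called, with the pairing: it was 1.47-fold lower (0.0333), with overlapping groups, and lost its call in 5 of the 6 fits without a library, reaching 0.328 without the 7.5 h library 3. The receptor gene Igf1r had a log2 change of -0.07 (SE 0.28).

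The granins Vgf and Scg2, which help form dense-core vesicles and yield secreted peptides, rose with the pairing. Vgf went from 5146, 9795 and 5322 to 13496, 15347 and 7766, where the second 1 h library was above the third 7.5 h library, and each pair rose (1.82-fold; adjusted p = 0.745 without the pairing and 0.00754 with it). Scg2 went from 18233, 15897 and 16198 to 25091, 21146 and 22034 (1.36-fold; adjusted p = 0.476 without the pairing and 0.00464 with it). Cbln4, a synapse organiser of the cerebellin family, and Nrn1, neuritin, rose 1.97-fold and 1.83-fold (0.0123 and 0.00709). These 4 were each lost in at least 1 of the 6 fits without a library, reaching 0.0517 without the 7.5 h library 1 for Vgf and 0.154 without the 1 h library 3 for Cbln4. Bdnf, the neurotrophin, was at 364, 239 and 355 at 1 h and 435, 430.5 and 698 at 7.5 h, without overlap, but did not pass either test (adjusted p = 1 without the pairing and 0.398 with it).

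Some neuropeptide genes and the genes of GABA synthesis rose with the pairing. Vip went from 55137, 72548 and 87862 to 69792, 93941 and 118880: the groups overlapped, and each pair rose (1.304-fold; adjusted p = 1 without the pairing and 0.00868 with it). Crh, corticotropin-releasing hormone, and Pnoc, the nociceptin precursor, rose 1.35-fold and 1.43-fold (0.0491 and 0.0289). Of 19 neuropeptide genes tested these were the 3 called with the pairing, against 1.03% of all genes, and the list's median was 0.29. Crh and Pnoc were called in none of the 6 fits without a library and Vip in 3, reaching 0.0754 without the 1 h library 3.

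Of 21 genes of the inhibitory synapse, 3 rose with the pairing and none fell, against 0.656% and 0.374% of all genes (median 0.19). Gad1 and Gad2, which make GABA, went from 23721, 19738 and 20193 to 31348, 26258 and 28414 and from 35222, 31937 and 38391 to 48797, 46003 and 59750. Both were apart at the 2 times, 1.35-fold and 1.46-fold higher (0.00225 and 0.00187), and called for every library left out. Without the pairing their adjusted p-values were 0.554 and 0.359. Over all 9 pan-inhibitory markers, which include both, the median log2 change was -0.11, with 4 of 9 positive. Among 33 voltage-gated potassium channel genes 3 rose with the pairing, against 0.656% of all genes. They included Kcnip3, a calcium-binding partner of Kv4 channels (1.61-fold), and Kcnd3, a Kv4 subunit (1.34-fold). The adjusted p-values of Kcnip3 and Kcnd3 were 0.00754 and 0.0248, and each was lost without some library, Kcnip3 reaching 0.06 without the 1 h library 1. The median of that list was 0.07.

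Hsp90b1, Hspa5 and Pdia3, which fold proteins in the endoplasmic reticulum, rose with the pairing. Of 25 genes of the heat shock and unfolded protein response, 4 rose and 1 fell with it, against 0.656% and 0.374% of all genes. None was called without it, and the median log2 change was 0.27. In 11 of the 25 all late libraries lay above all early ones, which held for 4.86% of all genes. Hsp90b1 (GRP94) went from 12856, 8472 and 11875 to 17285, 16491 and 18412 (1.59-fold; adjusted p = 0.382 without the pairing and 0.00377 with it). Hspa5 (BiP) went from 5573, 3972 and 6689.5 to 7550.1, 7605 and 9114 (1.52-fold; adjusted p = 0.82 without the pairing and 0.0124 with it). Pdia3, a disulfide isomerase, rose 1.48-fold (0.00464), and the cytosolic Hspa4 1.38-fold (0.0392). Dnajb1, a cytosolic cofactor of Hsp70, fell 2.302-fold, from 2344, 4310.4 and 7493 to 1819.5, 1815 and 1877 (0.0394). All 5 lost their call without some library, Hspa5 reaching 0.17 without the 1 h library 2, Hsp90b1 0.0612 without the 7.5 h library 3 and Dnajb1 0.229 without the 1 h library 2.

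The Hspa5 promoter is printed because it holds the endoplasmic reticulum stress element (CCAAT, any 9 bases, CCACG), in capitals (RefSeq, GRCm38.p6, 250 bases before the gene start, 5′ to 3′).
Hspa5 (chr2:34771840-34772089, plus strand): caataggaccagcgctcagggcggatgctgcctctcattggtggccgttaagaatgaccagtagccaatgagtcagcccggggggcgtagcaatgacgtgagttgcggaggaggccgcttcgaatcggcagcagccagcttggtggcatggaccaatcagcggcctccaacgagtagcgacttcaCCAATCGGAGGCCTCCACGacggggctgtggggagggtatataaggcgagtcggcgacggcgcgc
The element, read on either strand, was in 0.122% of all promoters. It was in 5 of the 21 list members with an entry (Hsp90b1, Hspa5, Pdia6, Creld2 and Calr). The difference from the share of all promoters was not tested. Pdia6, Creld2 and Calr had log2 changes of 0.38, 0.39 and 0.41, and none of the 3 was called in either fit.

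The clock genes that passed the test all fell. Of 21 circadian clock genes tested, Dbp fell without the pairing, 5 fell with it and none rose. Over all genes 0.0987% fell without it and 0.374% with it. The list's median log2 change was -0.21. Dbp, a transcription factor that carries the clock's rhythm to its targets, went from 598, 954 and 615 to 141, 229 and 138 (4.27-fold lower; adjusted p = 0.0137 without the pairing and 9.13e-05 with it). Its 7.5 h libraries were below every dark library (384, 852 and 639). With the pairing Dbp was called for every library left out, and without it in 3 of 6, reaching 0.162 without the 1 h library 2. Ciart, a clock repressor, was 4.17-fold lower (0.0203), and Per1, a repressor that light and activity also induce, went from 6046, 9249 and 6776 to 2722, 3196 and 1813 (2.89-fold lower; adjusted p = 0.105 without the pairing and 0.0104 with it). Nr1d1, REV-ERBα, and Hlf, a relative of Dbp, were 1.601-fold and 1.51-fold lower (0.002 and 0.0124). Nr1d1 was called for every library left out, Per1 in 3, Hlf in 3 and Ciart in 1, the last reaching 0.235 without the 1 h library 2. Arntl and Clock, the activators, had log2 changes of 0.46 and 0.23 and were not called. The motif CACGTG, which the clock activators bind, was in the promoters of Ciart and Per1. It was absent from those of Dbp, Nr1d1 and Hlf within this window. Of the 42 falling genes with an entry 11 held it (26.2%), against 6.05% of all promoters. Apart from Ciart and Per1, those 11 are outside the clock list. The difference between the 2 shares was not tested, and binding was not measured. The labels give no time of day, so 6.5 further hours of light and a later hour of the day cannot be told apart.

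Cirbp, a cold-inducible RNA-binding protein that the naming rule did not reach, was called with the pairing only. It stood at 1094, 2409.5 and 3032 at 1 h and 517, 1298 and 1491 at 7.5 h. The groups overlapped, the replicates kept their order in darkness too (1615, 3145 and 4186), and each pair fell (1.998-fold; adjusted p = 1 without the pairing and 0.000104 with it).

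**Figure D4:**
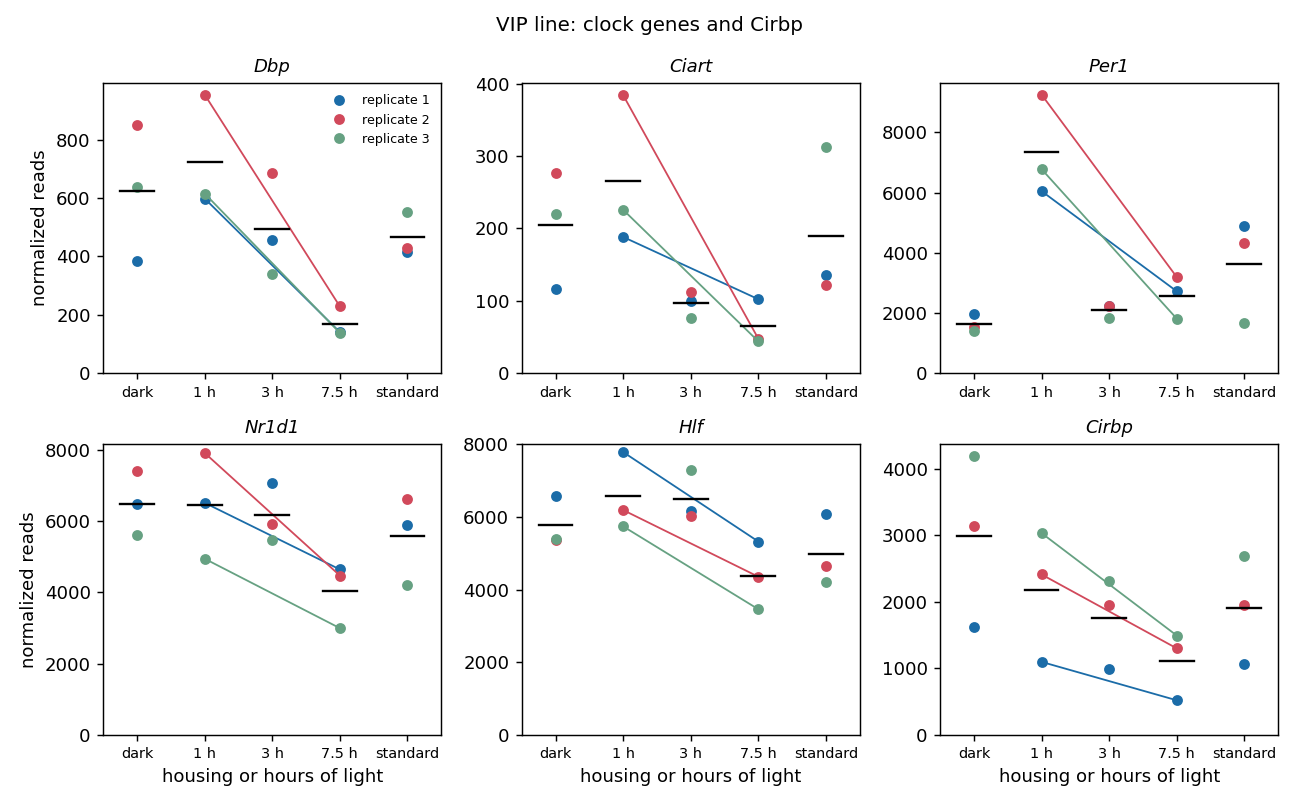
Normalized reads (y axis, from 0) of 5 clock genes and Cirbp in the VIP line, by housing condition or hours of light (x axis). Points are libraries coloured by replicate number, black bars are group means of 3 libraries, and lines join same-numbered libraries at 1 h and 7.5 h. Every line goes down, and for Dbp the 7.5 h libraries (141, 229 and 138) are below all others.

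Several groups gave no call in either fit. These were 38 genes of the excitatory synapse (median log2 change 0.04), 77 cytosolic ribosomal proteins (-0.02), 26 matrix and protease genes (-0.03), 23 genes of cholesterol synthesis (0.10) and 11 of prostaglandin synthesis and receptors (0.07). Over all genes 0.127% were called without the pairing and 1.03% with it, so lists of this size would hold few calls or none at those shares. A miss does not show that these genes were equal at the 2 times.

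The largest rises by the naming rule with the pairing, beside those above, were low to moderate in level. Aqp5, a water channel, rose 2.96-fold, Trpc6, a cation channel, 2.82-fold and Echdc1, a metabolic repair enzyme, 2.77-fold. Plce1, a phospholipase C, rose 2.501-fold, Mycn, a transcription factor, 2.47-fold and Rgs20, which curbs G-protein signalling, 2.39-fold. St18, a zinc finger factor, rose 2.31-fold, Lypla2, a thioesterase, 2.13-fold and Sema3a, a guidance cue, 2.07-fold. Their adjusted p-values ran from 0.00674 (Lypla2) to 0.0473 (St18). With the reads thinned to 1 depth, Rgs20, Mycn and St18 missed the threshold with the pairing too (0.115, 0.0529 and 0.0502). All 9 lost theirs without some library, St18 and Echdc1 without any of the 6.

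Filip1l, called in both fits, is uncertain. It was listed at 0 in all 1 h and all dark libraries and at 23.7, 97.9 and 23.9 at 7.5 h (adjusted p = 0.0333 without the pairing and 0.0104 with it), and without the pairing it was called in none of the fits that left out 1 library (0.268 without the 7.5 h library 2). Cmss1 overlaps it on the opposite strand of chromosome 16 in the GRCm38 annotation and was also listed at 0 in all dark and 1 h libraries of the line. Cmss1 stood at 188 to 303 at 7.5 h. In the same way Zc3h7a was listed at 0 in 42 of the 44 dark, 1 h and 3 h libraries of all lines and above 0 in 26 of the 29 others. It was set aside with 36 such genes in the VIP line. A difference in how early and late libraries were counted was not tested.

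The 3 h libraries did not enter the contrast, and their means were set against those of 1 h and 7.5 h. Of 53 genes that fell with the pairing, 38 had a 3 h mean between those of 1 h and 7.5 h (71.7%), and 12 had already reached or passed the 7.5 h mean (22.6%), among them Fos, Nr4a1, Nr4a3, Egr2, Jun, Per1, Sik1 and Plk2. Of 93 that rose, 72 had an intermediate 3 h mean (77.4%) and 20 were at or above the 7.5 h mean by 3 h (21.5%), among them Igf1, Vgf, Srxn1, Cdkn1a and Pnoc. Over all genes an intermediate mean was found in 33.0% and one at or past the 7.5 h mean in 33.8%. The shares of called genes at or past it were thus below that of all genes. The calls were chosen on the outer times, so these shares are a description. An intermediate mean does not say how far a change had gone by 3 h. Npas4 was close to its late level, with means of 9130, 716 and 406 at 1 h, 3 h and 7.5 h. Fosb was further from it, with 8416, 3962 and 911.

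The change from 1 h to 7.5 h in the VIP line was then set against that in other lines, in 1 fit of all 73 libraries. Against the mean of the PV and SST lines, 8 of 14201 genes differed (0.0563%) without the pairing and 284 (2.00%) with it. Without the VIP 7.5 h library 1 or 2 the first count was 17 or 13. Tpbg, a membrane glycoprotein that modulates Wnt signalling, had the smallest adjusted p after Filip1l, the gene listed at 0 in all VIP libraries at 1 h. In the VIP line it was at 2279.5 ± 524 at 1 h and 2088 ± 358 at 7.5 h (SD, n = 3). It was at 239 ± 30.4 at 1 h and 2534 ± 1024 at 7.5 h in the SST line and at 186 ± 19.1 at 1 h and 415 ± 76.7 at 7.5 h in the PV line. The changes of -0.12, 3.34 and 1.14 (log2) gave a difference of -2.35 (SE 0.27, adjusted p = 3.89e-08), which held for every VIP library left out. Nptx2, a pentraxin that gathers AMPA receptors onto interneurons, likewise had a change of 0.54 in VIP, 3.30 in SST and 2.58 in PV (0.000166).

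Among the genes that fell in VIP, Fosb and Errfi1 had a more negative change there than in PV and SST. Fosb changed by -3.17 in VIP, -0.60 in SST and -0.96 in PV (difference -2.39, SE 0.47, adjusted p = 0.0101; 0.087 without the VIP 1 h library 2). Errfi1, named here after its values were seen, changed by -0.84 in VIP, 0.48 in SST and -0.14 in PV (adjusted p = 0.0001). Both also had negative changes in the Emx line, -1.59 for Fosb and -0.70 for Errfi1. Neither difference between VIP and Emx was called, with the pairing or without it. Npas4 and Fos had more negative changes in VIP than in PV or SST, and the difference from those lines was not called (0.285 and 0.418 without the pairing, 0.0793 and 0.143 with it). For Igf1 the changes were 0.70 in VIP, 0.59 in PV and 0.49 in SST, with a difference of 0.16 (SE 0.33, adjusted p = 1). Its mean level at 7.5 h was 26557 in VIP, 3339.6 in SST and 258 in PV. For Arrb1, which rose by 0.82 in VIP and had 0.06 in PV and 0.18 in SST, the difference was called with the pairing only (5.66e-08; 0.116 without).

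Against the Emx line, which marks mainly excitatory neurons, 20 genes differed (0.141%) without the pairing and 489 (3.44%) with it, and 34 did without the VIP 7.5 h library 1. Sgsm1, a regulator of small G proteins, changed by 0.25 in VIP and 1.80 in Emx (difference -1.55, SE 0.22, adjusted p = 2.06e-05). Mybpc1, a myosin-binding protein, changed by 0.76 in VIP and -1.42 in Emx, where its level was 27.1 ± 4.502 at 1 h and 9.83 ± 3.59 at 7.5 h (0.00167). Marcks, a substrate of protein kinase C that binds actin, was 4860.3 ± 630.2 at 1 h and 7321 ± 611 at 7.5 h in VIP and 3179 ± 584 at 1 h and 2083 ± 151 at 7.5 h in Emx (0.00808). All 3 held for every VIP library left out. Plk2, named here after its values were seen, fell by 1.17 (log2) in VIP and had a change of -0.19 in Emx (0.0421; 0.174 without the VIP 1 h library 2).

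**Figure D5:**
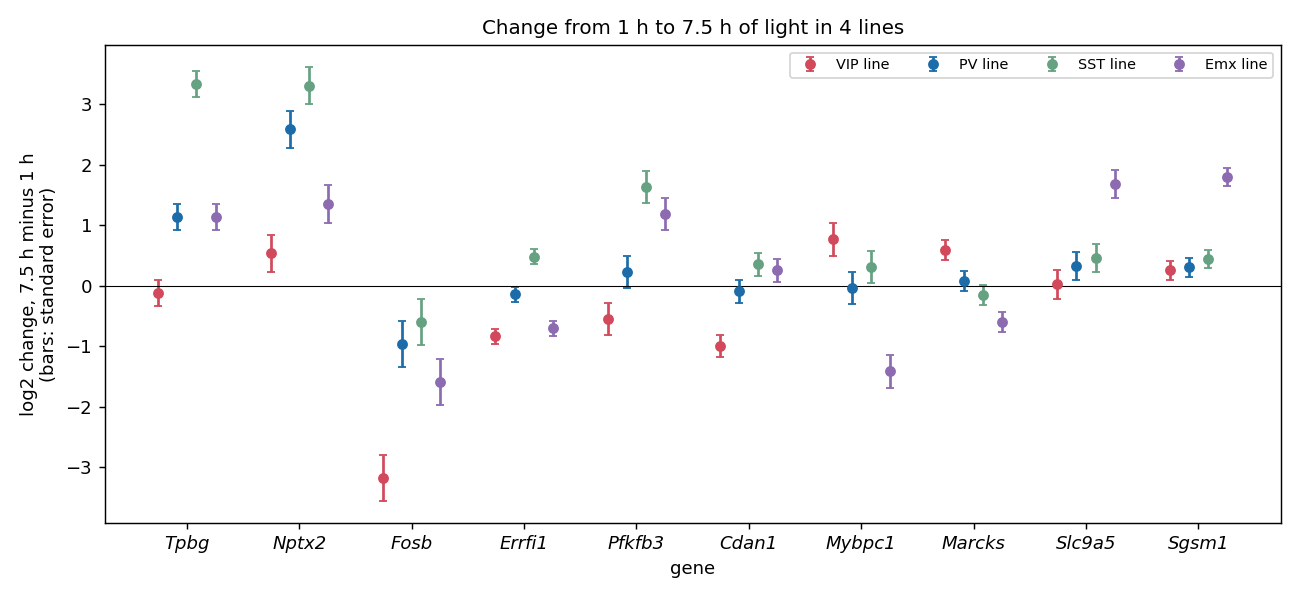
Log2 change from 1 h to 7.5 h of light (y axis) of 10 genes (x axis) whose change in the VIP line differed from that in the PV and SST lines or in the Emx line. Points are estimates from 1 fit of all lines and bars are standard errors. Tpbg stays near 0 in VIP and is above 1 in the other 3 lines, and Fosb is lowest in VIP.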

How the data were processed

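Values are the authors' deposited table of normalized read counts per gene and library (a signal with no stated unit). The submitters' processing notes name mm9, BWA, Cuffdiff 2.2.1 and Cuffnorm, besides Bowtie2 2.1.0.0 and TopHat2 2.0.13, with no order or settings. Low values were whole multiples of 1 step per library for 92.9 to 96.4% of genes within 0.1 read, which gave the depths. That is too few to recover counts, so no count test was run. Of 14284 genes, 23 named as dates were dropped. 2 per-sample columns (SST dark and standard housing, replicate 2) held no values and were not used. A gene was tested where 3 libraries reached a signal of 1, and 37 genes (59 over all lines) were set aside, after the data were seen, because they were at exactly 0 in some library while the median of libraries above 0 was at least 50 reads.

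The test was limma 3.58.1 (R 4.3.3) on log2(signal + 1) with robust trended moderation, over all 15 VIP libraries or all 73. Fold changes are on that scale and understate low genes. Deviations of same-numbered 1 h and 7.5 h libraries correlated at 0.54, 0.38 and 0.46 over 11868 genes (other pairs -0.39 to -0.07), so the numbers were taken to pair the libraries, and the fit with the number as a block is given beside the unblocked one. The test was also run on simulated data. A replicate term was built into those data, so that run cannot tell whether the numbers pair the libraries.

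Genes named by rule were the 12 largest called changes each way with a mean of at least 50, up to 4 called per list, 7 fixed genes and the 4 largest interactions each way. Further list members, among them Jun, Egr2, Egr3, Fosl2, Jund, Ier5, Scg2, Hlf and Hspa4, were named outside this rule with their values known. The rule was applied to the paired fit too, after its calls were seen. The members, 18 lists and 10 marker lists were chosen with earlier results of these data known. Promoters are from RefSeq, 1 entry per symbol. Some called genes are not reported here.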

Additional observations from a re-analysis of the deposited data

Results flagged for a closer look

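The change from 1 h to 7.5 h differed between the VIP line and PV and SST in 8 genes and between VIP and Emx in 20, by the test of the difference itself. Those named are up to 4 each way by size of the difference. Against the mean of PV and SST, the log2 difference (VIP minus the others) was 5.49 for Filip1l, 4.20 for Th, -2.41 for Nptx2, -2.39 for Fosb, -2.35 for Tpbg and -1.48 for Pfkfb3. Against Emx it was 6.35 for Filip1l, 2.18 for Mybpc1, 1.19 for Marcks, 0.59 for Prune2, -1.74 for Pfkfb3, -1.65 for Slc9a5, -1.60 for Sorcs3 and -1.55 for Sgsm1.

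Th, tyrosine hydroxylase, was at 0, 3.17 and 0.795 normalized reads in the VIP libraries at 1 h and at 25.6, 36.4 and 36.7 at 7.5 h. In darkness Th was at 2.54, 26.1 and 11.1, so the dark and 7.5 h libraries overlapped. Its difference had an adjusted p of 0.000489, and its change within the VIP line alone was not called (adjusted p = 0.284 without the pairing and 0.0595 with it). At these levels 1 late read was worth 1.83 to 2.28, so Th rests on few reads. Pfkfb3, which raises glycolysis, changed by -0.55 in VIP, 0.23 in PV, 1.63 in SST and 1.19 in Emx, and its call was lost when a VIP library was left out (0.198 without the VIP 7.5 h library 3). Slc9a5, a sodium-proton exchanger, and Sorcs3, a sorting receptor, had changes of 1.68 and 1.78 in Emx, against 0.02 and 0.18 in VIP. Both lost the call without some VIP library (0.0568 without the VIP 7.5 h library 3 and 0.129 without the VIP 1 h library 2). Prune2 changed by -0.06 in VIP and -0.65 in Emx. Filip1l was listed at 0 in every VIP library at 1 h and at 67.2 in SST and 221 in PV on average, and it overlaps a gene that was also listed at 0 in the same VIP libraries.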

How the results depend on the processing

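No named gene that was called in the VIP line changed sign under a setting run. Slc9a5 and Tpbg, uncalled there and near 0, did under some. For the 18 calls (4 higher, 14 lower), plain limma gave 4 (1 and 3), quantile normalization gave 18 (2 and 16), and thinned reads or only the 6 libraries left 2 higher. The replicate block gave 146 (93 and 53). With the block, TMM scaling gave 142 (87 and 55), pseudocount 10 gave 151 (96 and 55), quantile normalization gave 125 (73 and 52), thinned reads gave 135 (90 and 45) and only the 6 libraries gave 322 (196 and 126). With 1 library left out, calls ran from 3 to 12 (0 to 1 higher, 3 to 11 lower) without the block. With the block and without the 1 h library 1, 2 or 3 they were 83 (47 and 36), 57 (37 and 20) or 72 (45 and 27), and without the 7.5 h library 1, 2 or 3 they were 81 (46 and 35), 66 (39 and 27) or 48 (26 and 22). Against PV and SST the 8 calls became 20 with pseudocount 10, 284 with the block, and 8 to 17 without 1 library. Against Emx the 20 became 41 with quantile normalization, 489 with the block, and 14 to 34 without 1 library. The cause of these differences was not tested. The block made 44 of 70 named genes newly called and lost Egr1. Of the 70, 53 met the naming rule in the fit with the block, which takes only called genes. The count of 44 therefore follows in large part from the naming. Over all 14181 genes tested, 129 were called with the block only. The settings that combine the block with another choice, and keeping the genes at 0 in single libraries (20 calls), were chosen after seeing the data. edgeR and DESeq2 were not run, since whole reads could not be recovered for nearly all genes. One read was worth 1.83 to 2.28 normalized reads in the late libraries, against 0.528 to 0.795 at 1 h.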

Other observations

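Genes outside every list also changed with the pairing and were chosen here after their values were seen. Among those called whichever library was left out, rises included Slc6a17, a synaptic vesicle transporter of amino acids (1.498-fold, adjusted p = 0.000483), Ptprn, a dense-core vesicle protein (1.53-fold, 0.00159), and Rab6a, of Golgi traffic (1.401-fold, 0.00106). Ppargc1a, a coactivator of mitochondrial genes, went from 5320.5, 3402 and 3747 to 8215, 5469 and 5807 and rose 1.57-fold (0.00225). Falls included Kcnj2, an inward rectifier potassium channel (1.89-fold, 0.000504), Cited2, a transcriptional coregulator (1.64-fold, 0.00349), Coq10b, of coenzyme Q function (2.72-fold, 0.000663), and Rspo4, a Wnt agonist, which went from 560.4, 2404 and 682 to 329, 351 and 211 (3.35-fold, 0.00147). None of these 8 was called without the pairing, where their adjusted p ran from 0.0805 (Kcnj2) to 0.836 (Ppargc1a).

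Some early genes not called in either fit stayed above darkness at both times in their group means. Homer1 was at 4668, 2378 and 4320 and then 5115, 3993 and 5729.8, against 1803 to 2686 in darkness. Dusp6 was at 2077, 2228 and 1745 and 1962, 1248 and 1137, against 441 to 718. Standard housing gave Fos values of 5908, 4015 and 5221, between those of 7.5 h and 1 h, and Igf1 values of 18823, 20037 and 23142.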
